A study of Mus musculus with 15 samples.

Results

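The comparison described here sets 3 libraries of CAR macrophages against 3 libraries of control-CAR macrophages, 6 of the 15 mRNA sequencing libraries in a mouse series, over all genes. CAR commonly stands for chimeric antigen receptor, an engineered surface receptor that directs an immune cell to a chosen antigen. The CAR group carried the genotype CAR expression and the treatment CAR treated. The control-CAR group carried Control-CAR expression and Control-CAR treated. Both were labelled as macrophages and primary cells from bone marrow. The antigen, the receptor's signalling parts, the vector and the cells into which it was put are not given in the labels. The title of the series names myeloid progenitors as the origin of its CAR macrophages and colorectal cancer as the intended target. The other 9 libraries were wild type and untreated, 3 each of progenitor cells, Hoxb8 macrophages and BMDM (a common short form for bone marrow-derived macrophages), and they appear below only for scale. The table held 17030 genes, of which 11793 reached 1 FPKM (reads per transcript length, scaled to the library's total) in at least 3 of the 15 libraries and were tested. Whether the replicates were separate cultures or animals is not stated in the labels, so p-values measure only the spread between these samples, and that spread may be technical.

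Genes were sorted by symbol into 4 classes, transcription factors, surface receptors and other surface proteins, secreted factors, and enzymes and transporters of metabolism, and within these into 53 families. Of the tested genes, 2960 fell into a class and 8833 into none. Levels are mean FPKM ± SD of 3 libraries. Changes are log2 ratios of CAR over control-CAR from edgeR's quasi-likelihood test on estimated counts with TMM scaling, and genes with an adjusted p below 0.05 (Benjamini-Hochberg over all tested genes) count as called. FPKM carries no TMM scaling, so its ratio and the modelled change need not be equal. A gene with a count of 0 in all control-CAR libraries is given a lower bound, with 3 counts put in each library at 0. Beside a fixed list, the named genes were the largest changes per class and family among called genes whose CAR and control-CAR libraries did not overlap, so that the lack of overlap between their groups is a property of the choice. Before this ranking, 62 genes already described from these data were set aside, of which 14 would have stood among the largest rises and 11 among the largest falls. They include Hmga1b among transcription factors, Tm4sf1 and Axl among surface proteins, and Penk and Cxcl1 among secreted factors. A ranked rise or fall below is a change ranked without them.

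Macrophages are set up by a small group of transcription factors. The ETS factor PU.1 (Spi1), the C/EBP factors and IRF8 lead progenitors into the monocyte and macrophage lineage, and STAT and IRF factors carry interferon signals to the genome. Surface receptors for growth factors, lectin ligands and antibodies report on the surroundings. Secreted proteases, matrix proteins and cytokines act on neighbouring cells, and metabolism is re-set when macrophages are activated or divide.

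Promoters of 4 named genes are shown because their levels were higher in the CAR libraries and their windows hold the letters of interferon-responsive elements. The windows are the RefSeq promoters of build GRCm38.p6, searched on both strands from 250 bases before to 50 after the start and printed without the 50 transcribed bases. Capitals mark the matches, read 5′ to 3′ in the direction of the gene. Irf1, an interferon regulatory factor gene, lies on the plus strand and is shown at chr11:53769764-53770013 with a gamma-activated sequence (letters TTCNNNGAA), an element bound by STAT dimers.
Irf1: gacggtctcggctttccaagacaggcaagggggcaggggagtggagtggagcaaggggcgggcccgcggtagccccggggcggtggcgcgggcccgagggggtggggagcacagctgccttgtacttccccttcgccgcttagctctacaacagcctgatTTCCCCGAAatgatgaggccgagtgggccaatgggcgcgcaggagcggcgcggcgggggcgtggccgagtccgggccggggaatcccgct
Stat2, which codes for the STAT partner in the type I interferon complex, lies on the plus strand and is shown at chr10:128270248-128270497 with an interferon-stimulated response element (letters TTTC, then 2 free bases, then TTTC).
Stat2: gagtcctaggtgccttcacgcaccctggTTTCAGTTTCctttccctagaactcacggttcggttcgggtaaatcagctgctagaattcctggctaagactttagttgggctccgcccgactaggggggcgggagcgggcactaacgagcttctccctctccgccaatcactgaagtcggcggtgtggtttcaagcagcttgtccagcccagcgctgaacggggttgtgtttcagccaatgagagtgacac
Slamf8, a gene of a signalling lymphocytic activation molecule family receptor of myeloid cells, lies on the minus strand and is shown at chr1:172590569-172590818 with the same element.
Slamf8: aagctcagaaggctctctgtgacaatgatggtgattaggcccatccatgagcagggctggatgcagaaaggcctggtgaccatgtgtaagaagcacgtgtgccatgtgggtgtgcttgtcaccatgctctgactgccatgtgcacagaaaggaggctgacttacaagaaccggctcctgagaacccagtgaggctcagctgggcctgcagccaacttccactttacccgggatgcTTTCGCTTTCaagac
Apol9a, an apolipoprotein L gene, lies on the minus strand and is shown at chr15:77411081-77411330 with 2 overlapping matches to it.
Apol9a: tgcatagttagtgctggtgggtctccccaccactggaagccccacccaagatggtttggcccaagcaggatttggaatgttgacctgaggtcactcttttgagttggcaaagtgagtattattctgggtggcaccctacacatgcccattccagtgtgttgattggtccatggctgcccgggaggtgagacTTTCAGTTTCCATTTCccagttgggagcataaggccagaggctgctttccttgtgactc

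The interferon-stimulated response element letters were found in 3.49% of all 27025 promoter windows and in 3.21% of the 9535 windows of tested genes. They were found in 63 of the 1097 windows of genes called at least 4-fold higher in CAR libraries (5.74%) and in 7 of the 314 windows of genes called at least 4-fold lower (2.23%). The letters of the NF-kB site, GGG and TTCC with 3 free bases between them, stood in 8.11% of the windows on the higher side and 3.18% of those on the lower side, against 6.35% of tested genes. The gamma-activated sequence stood in 8.66%, 7.32% and 6.96%, in the same order. The hypoxia response element core, ACGTG, had the order the other way, with 19.5% on the higher side, 24.5% on the lower side and 26.1% of tested genes. Other motifs were searched too, given here as higher side, lower side and tested genes. The AP-1 site stood in 6.47%, 9.24% and 5.25%, and the TATA box in 9.57%, 11.8% and 7.24%. For the cyclic AMP response element it was 2.55%, 1.27% and 3.3%, and for the palindromic E-box 7.47%, 7.32% and 10.2%. The antioxidant response element had 44.1%, 47.1% and 43.4%, and the CCAAT box 39.7%, 36% and 39.3%. A match says only that the letters are in the window, and no test was made of these shares.

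Total estimated counts ran from 17779804 to 18498159 in the CAR libraries and from 16962839 to 18049541 in the control-CAR libraries, with 14740 to 14815 and 12947 to 13160 genes above 0. Control-CAR replicate 1 stood apart from replicates 2 and 3 (chi-square per degree of freedom 15.3 and 10.2, against 2.97 between these 2 and 1.42 to 2.07 among the CAR libraries). Without it 4942 genes were called higher and 4246 lower, against 4946 and 4334 with it. These were 41.9% and 36.8% of tested genes, 78.7% in all, and 82.1% had FPKM values that did not overlap between the groups. Genes called at least 2-fold higher made up 20.0% and at least 2-fold lower 11.7%, together 31.7%. A count of 0 in all control-CAR libraries was found for 369 tested genes, of which 308 were called higher, and in all CAR libraries for 44, of which 5 were called lower. Family counts and medians below include genes that reached 1 FPKM in the CAR libraries alone, which could hardly be called lower under any scaling. A count of 0 was taken to allow up to 3 counts, 0.199 to 0.202 CPM (counts scaled to the library total) in the control-CAR libraries, which covers counting error only. How many genes lay on each side depended on the scaling. It was 6722 higher and 2770 lower with library totals, 6713 and 2770 on FPKM, 8018 and 1933 on TPM (length-scaled values with a fixed sum per library), 5417 and 3925 with upper quartile scaling, and 4212 and 5306 after quantile normalisation. Over all tested genes the median log2 change, 0.06 with TMM, moved by 0.31, 0.23, 0.45, 0.08 and -0.16 in that order, so all changes below are relative to TMM.

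The labelled cell type was checked against 16 macrophage genes, all of which were in the table and tested. Of these 3 were higher, 8 lower and 5 not called in CAR libraries, and their summed level was 8005 to 8281 FPKM in CAR and 13774 to 14662 FPKM in control-CAR libraries, with C1qa at 0 in control-CAR libraries. Most of the fall in this sum lay in Lyz2 (from 5027 to 612 FPKM) and Cd14 (from 4990 to 3169 FPKM). Ctss (439 against 234 FPKM) and Mpeg1 (325 against 77.2 FPKM) rose, and Tyrobp (1709 against 1473 FPKM) was not called. Genes of other cell types moved in the same comparison. Of 10 tested mast cell and basophil genes 9 were higher, with a summed level of 3814 to 4049 FPKM in CAR against 451 to 492 FPKM in control-CAR libraries, and Mcpt4 at 0 in the latter. Of 12 neutrophil genes 10 were lower and 1 higher (5898 to 6111 against 16918 to 17617 FPKM). Of 7 fibroblast genes 4 were higher and 2 lower (52.6 to 53.8 against 17.4 to 20.6 FPKM, with Postn and Sparc at 0 in control-CAR libraries), of which Col1a2 stood at 23.9 against 0.01, Sparc at 16.4 against 0, Dcn at 3.86 against 0.977 and Col1a1 at 1.5 against 0.00667 FPKM, while Pdgfrb fell from 16.9 to 5.81 FPKM. Other fibroblast genes were low in CAR libraries, with Pdgfra at 0.78, Col3a1 at 0.143 and Postn at 0.00667 FPKM. Of 16 epithelial and colon tumour genes in the table only 5 reached the level for testing. Of these 3 were higher and 1 lower (10.7 to 11.3 against 1.71 to 2.83 FPKM over the list). The 3 were Krt20 (5.46 against 0 FPKM, at least 42.4-fold), Krt18 (2.25 against 0 FPKM, at least 11.6-fold) and Cdh1 (1.69 against 0.333 FPKM), while Epcam stood at 0.02 and Krt8 at 0.0133 FPKM in CAR libraries. Krt20, Krt18 and, among the fibroblast genes, Sparc were at 0 in control-CAR libraries, so they could not be called lower. Of 11 progenitor genes 6 were higher and 1 lower (235 to 250 against 28 to 30 FPKM). The most abundant in CAR libraries were Ctsg (113 against 2.79 FPKM) and Gata2 (60.2 against 10.4 FPKM). Kit, Flt3, Elane and Prtn3 were not called. Gata2 and Kit are on the mast cell and basophil list too, so the 2 lists are not separate. Eosinophil genes had 4 of 5 higher and 1 lower (877 to 919 against 149 to 236 FPKM). Most of this level was Prg2 (864 against 162 FPKM), and Siglecf fell from 11 to 3.3 FPKM. Dendritic cell genes had 4 of 6 higher and none lower (520 to 566 against 275 to 297 FPKM). Most of that level was Bst2 (485 against 254 FPKM), while Flt3, Zbtb46, Xcr1 and Clec9a were below 1 FPKM in both groups. Osteoclast genes had 4 of 5 higher and 1 lower, with a smaller sum in CAR libraries (42.3 to 43.7 against 141 to 172 FPKM). Monocyte genes had 3 of 7 higher and 3 lower (165 to 168 against 444 to 505 FPKM), and megakaryocyte genes 2 of 6 higher and 3 lower (379 to 391 against 824 to 871 FPKM). The 1 tested erythroid gene was higher (57.6 to 67.8 against 1.55 to 3.21 FPKM for the list). T and NK cell genes summed to at most 0.27 FPKM in any of the 6 libraries. In bulk RNA, more cells of a type and more RNA per cell cannot be told apart.

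**Figure D1:**
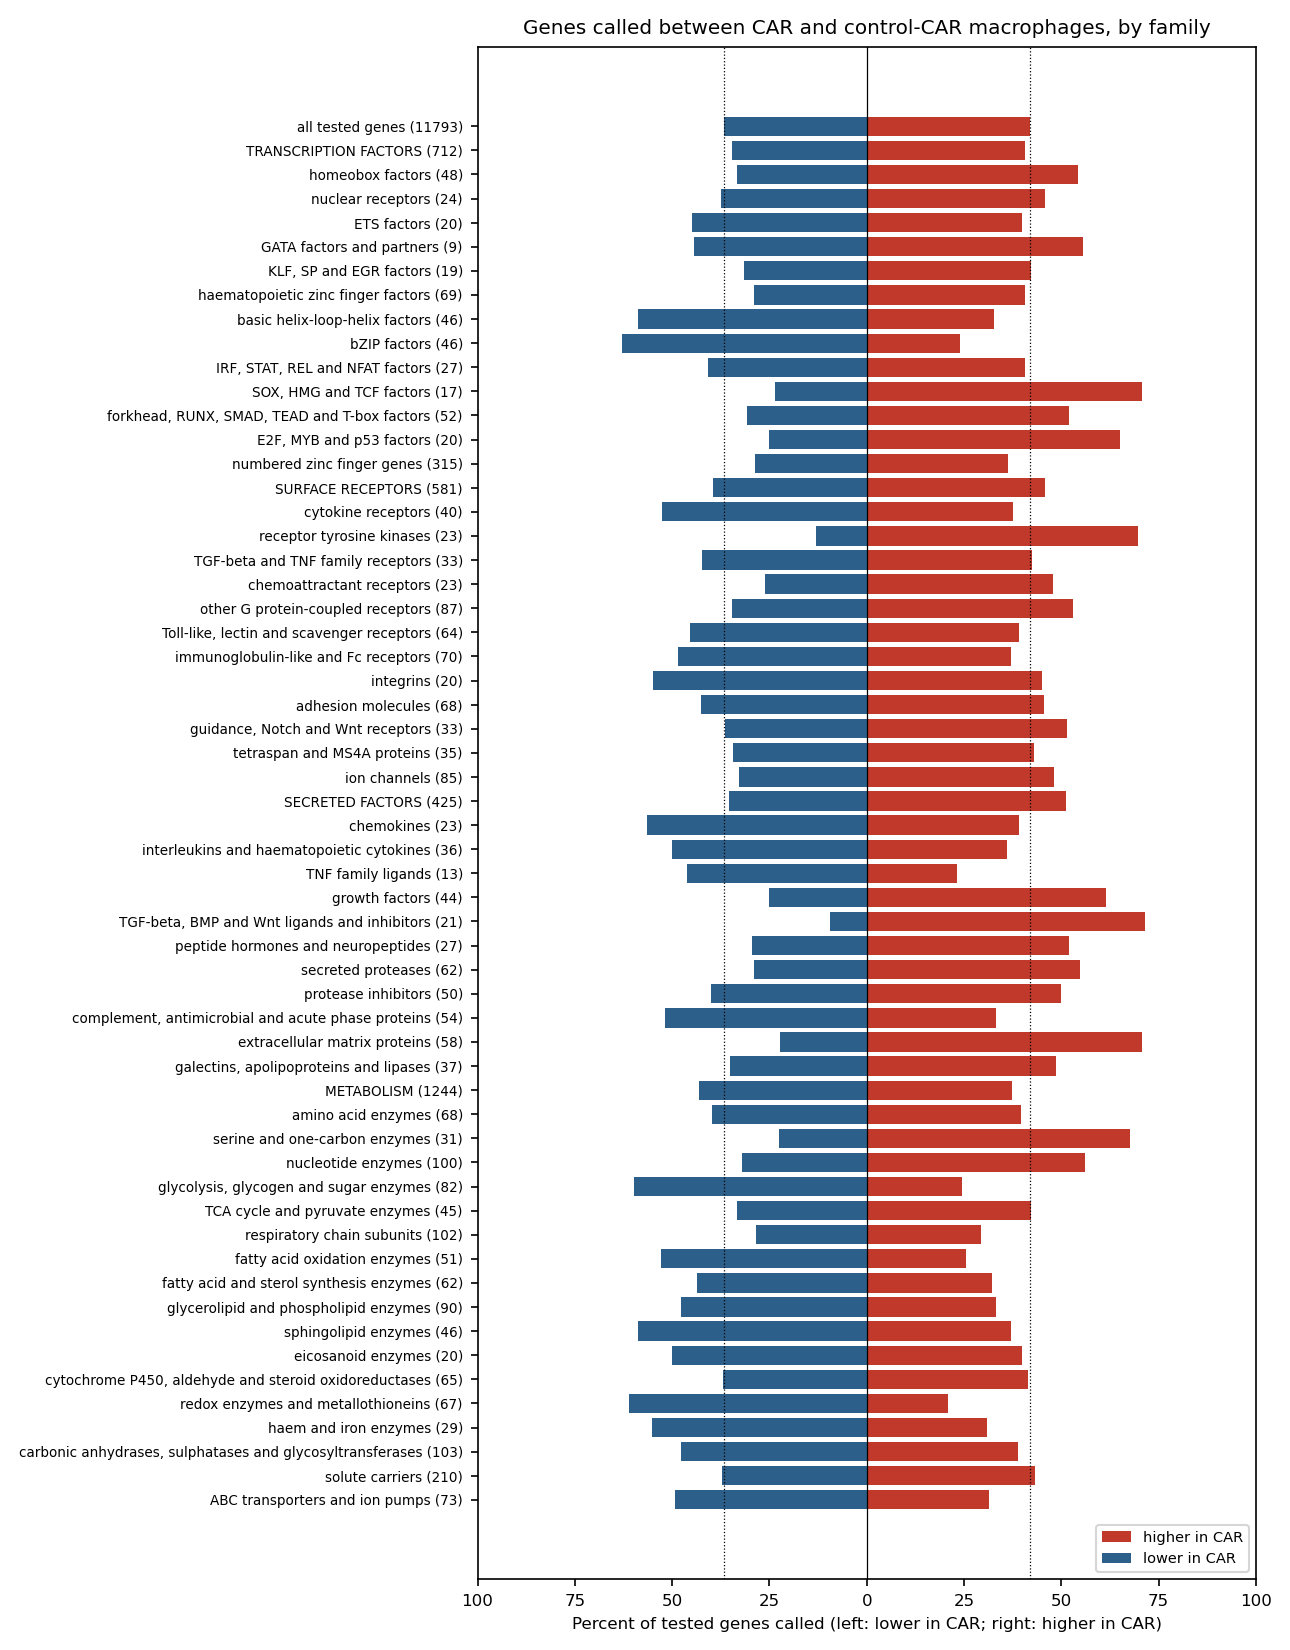
Percent of tested genes called between CAR and control-CAR macrophages, by family, with the number tested in brackets. Bars to the right are genes higher in CAR libraries, bars to the left genes lower, and the dotted lines mark the shares over all tested genes (41.9% and 36.8%). Receptor tyrosine kinases (16 higher, 3 lower) and extracellular matrix proteins (41 and 13) reach far to the right, and glycolysis, glycogen and sugar enzymes (20 and 49, but 36 and 35 on TPM) far to the left. The families on the right include genes that reached 1 FPKM in the CAR libraries alone, such as Ryk and Fbln2, which could hardly be called lower.

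Among transcription factors, the chromatin architecture gene Hmga2, Klf4, Twist1, Twist2, Prrx1 and Prrx2 were higher in CAR macrophages and at or near 0 in control-CAR macrophages. The macrophage factors Spi1, Cebpb and Irf8 were lower. Of 712 tested transcription factors (1022 in the table), 289 were higher (40.6%), 246 lower (34.6%) and 177 not called, shares near those of all tested genes, and after quantile normalisation the split turned to 197 and 386. A change of at least 2-fold was called for 31.5% of them, against 31.7% of all tested genes.

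Hmga2, a chromatin architecture protein typical of embryonic and stem cells, stood at 46.3, 47.1 and 48.5 FPKM in CAR and 0.8, 0.72 and 0.77 FPKM in control-CAR libraries. The log2 ratio was 5.65 (SE 0.0895), and progenitor cells held 9.95 ± 0.283 FPKM. Its relative Hmga1, chosen after its values were seen, rose from 329 ± 22.7 to 607 ± 9.35 FPKM (log2 change 0.62, SE 0.0674). Reads assigned to Hmga1b (229 against 0.24 FPKM) are uncertain beside it, since that copy is nearly identical to Hmga1. The SOX, HMG and TCF family to which they belong had 12 members higher and 4 lower of 17 tested (32 in the table), and more rose than fell in each of the 5 other scalings. Among them Hmgb3 rose from 2.98 ± 0.652 to 22.5 ± 0.947 FPKM (log2 ratio 2.64, SE 0.13), and Sox4, a factor of progenitors, from 3.13 ± 0.23 to 14.2 ± 0.161 FPKM (log2 ratio 1.87, SE 0.0864).

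Klf4, known from monocyte differentiation and from reprogramming to pluripotency, stood at 31.9, 33.2 and 32.5 FPKM in CAR and 0.26, 0.26 and 0.25 FPKM in control-CAR libraries (log2 ratio 6.67, SE 0.13). Klf5 had 10.1 ± 0.179 against 0.307 ± 0.0839 FPKM (log2 ratio 4.71, SE 0.25). Klf2, which restrains inflammatory gene expression in macrophages, went the other way, with 10.7, 9.49 and 8.47 FPKM in CAR and 22.6, 28.1 and 25.5 FPKM in control-CAR libraries (log2 ratio -1.72, SE 0.14). For Klf4 and Klf5 the control-CAR libraries were all below 0.5 FPKM, while Klf2 remained above 8 FPKM in each CAR library. In the KLF, SP and EGR family as a whole, 8 of 19 were higher and 6 lower, a split that turned to 6 and 8 after quantile normalisation.

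Several named factors are known from mesenchyme. Twist2 had 12.1, 14.3 and 11.3 FPKM in CAR and 0 in all control-CAR libraries and was at least 61.1-fold higher. Twist1 (9.17 ± 0.319 against 0 FPKM) and Prrx1 (6.87 ± 0.376 against 0 FPKM) were higher, by at least 57.4-fold for Twist1 and 148-fold for Prrx1. Prrx2 stood at 11, 11.3 and 12.7 FPKM in CAR and 0, 0.07 and 0 FPKM in control-CAR libraries (log2 ratio 8.38, SE 0.36), so a single control-CAR library held a trace of it. Tead2, a DNA-binding partner of the coactivators YAP and TAZ, had 14.6 ± 0.261 against 0 FPKM and was at least 126-fold higher. The forkhead gene Foxf1 (8.56 ± 0.479 against 0 FPKM) and the Iroquois homeobox gene Irx2 (5.79 ± 0.661 against 0 FPKM) were higher, by at least 85.9-fold for Foxf1 and 66-fold for Irx2. Snai1, a zinc finger repressor of epithelial genes, rose from 0.657 ± 0.0874 to 6 ± 0.517 FPKM (log2 ratio 2.89, SE 0.16). BMDM held Twist2 at 0 and Prrx1 at 0.0367 FPKM. Fibroblast genes went both ways beside these factors (4 of 7 higher and 2 lower, summed levels above), and their part in the result was not tested. Homeobox factors as a family had 26 of 48 higher and 16 lower, more higher than lower in each of the 5 other scalings, while Hoxb8 itself fell.

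Other named factors act in cell division. Foxm1, which drives mitotic genes, stood at 20.2, 21.7 and 20.3 FPKM in CAR and 0.19, 0.19 and 0.23 FPKM in control-CAR libraries (log2 ratio 6.34, SE 0.12). Mybl2 (15.1 ± 0.0954 against 0.357 ± 0.235 FPKM) and E2f8 (15.8 ± 0.484 against 0.69 ± 0.14 FPKM) rose with it (log2 changes 5.07 and 4.23, SE 0.17 and 0.12), and so did Tfdp1, the dimer partner of E2F factors (log2 change 0.97, SE 0.0561). For these 3 genes the CAR level was below that of progenitor cells, which held Foxm1 at 25.2 ± 0.228 and Mybl2 at 102 ± 3.01 FPKM. Of 20 E2F, MYB and p53 factors 13 were higher and 5 lower, with more higher than lower in each of the 5 other scalings. Myb, a progenitor factor from the fixed list, rose from 0.647 ± 0.203 to 3.35 ± 0.357 FPKM (log2 ratio 2.04, SE 0.22).

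Of the named factors linked to interferon, Batf2, Stat2, Irf1 and Irf4 rose and Irf8 fell, while the IRF, STAT, REL and NFAT family as a whole had as many members higher as lower. Batf2, an interferon-induced bZIP factor, had 18.5, 20.5 and 19.9 FPKM in CAR and 0 in all control-CAR libraries and was at least 109-fold higher, with 1.98 ± 0.231 FPKM in BMDM. Stat2 rose from 10.3 ± 0.454 to 41.1 ± 1.17 FPKM (log2 ratio 1.68, SE 0.0807). Irf1, whose promoter is shown above, had 368 against 28.5 FPKM. Irf4 rose from 2.49 ± 0.24 to 7.26 ± 0.302 FPKM (log2 ratio 1.23, SE 0.11), with 11.6 ± 0.523 FPKM in BMDM. Irf8, a lineage factor of monocytes and dendritic cells, stood at 8.17, 8.45 and 7.91 FPKM in CAR and 28.4, 31 and 31.9 FPKM in control-CAR libraries (log2 ratio -2.20, SE 0.0852), against 73.3 ± 4.5 FPKM in BMDM and 2.37 ± 0.224 FPKM in progenitor cells. The CAR libraries thus lay between the progenitor and the control-CAR libraries for Irf8. Of 27 IRF, STAT, REL and NFAT factors 11 were higher and 11 lower, with more higher than lower under library totals (15 and 8), upper quartile (13 and 9), FPKM (15 and 8) and TPM (19 and 4), and fewer after quantile normalisation (11 and 13).

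Of 46 bZIP factors 29 were lower and 11 higher, a split that turned only under TPM (17 and 21) among the 5 other scalings. Batf fell, with 25.7, 27.3 and 29.7 FPKM in CAR and 80.3, 88.6 and 80.9 FPKM in control-CAR libraries (log2 ratio -1.89, SE 0.0888), and Cebpb, a factor of inflammatory macrophages, from 862 ± 55.3 to 365 ± 65.3 FPKM (log2 ratio -1.54, SE 0.10). Ddit3, the stress response factor CHOP, rose from 25.6 ± 3.59 to 83.8 ± 3.44 FPKM (log2 ratio 1.3, SE 0.10). Of 46 basic helix-loop-helix factors 27 were lower and 15 higher (18 and 18 with library totals, 15 and 17 on FPKM, 12 and 25 on TPM). Mxi1, which competes with MYC for its partner MAX, stood at 43.6, 46.7 and 47.8 FPKM in CAR and 196, 195 and 205 FPKM in control-CAR libraries (log2 ratio -2.45, SE 0.0699), and the circadian repressor Bhlhe41 fell from 13.9 ± 0.243 to 3.76 ± 0.131 FPKM (log2 ratio -2.19, SE 0.10). Ahrr, the repressor of the aryl hydrocarbon receptor, had 7.06 ± 0.423 against 0 FPKM and was at least 140-fold higher, with 16.2 ± 1.03 FPKM in BMDM.

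Among other factors, Pou2f2, the lymphoid octamer factor Oct-2, stood at 2.94, 2.14 and 2.65 FPKM in CAR and 19.5, 15.8 and 16.5 FPKM in control-CAR libraries (log2 ratio -2.94, SE 0.0886). Thra, the thyroid hormone receptor alpha gene, fell from 18.2 ± 1.33 to 5.12 ± 0.316 FPKM (log2 ratio -2.23, SE 0.0789). Zfp395 (log2 ratio -3.15, SE 0.10), Zbtb8b (log2 ratio -2.69, SE 0.15) and Zfp811 (log2 ratio -1.91, SE 0.18) also fell. The nuclear receptor Nr4a2 rose from 0.783 ± 0.0751 to 6.53 ± 0.337 FPKM (log2 ratio 2.75, SE 0.14), and Nr1d1, the circadian repressor REV-ERB alpha, by a log2 change of 1.33 (SE 0.15). Gata2, a factor of progenitors and mast cells, stood at 60.7, 59.1 and 61 FPKM in CAR and 10, 10.8 and 10.4 FPKM in control-CAR libraries (log2 ratio 2.22, SE 0.0623), and its partner family member Lmo1 rose while Lmo2 fell (log2 changes 4.63 and -1.17, SE 0.43 and 0.0869). Mast cell and basophil genes moved with Gata2, itself 1 of them, and their part in the result was not tested. Among ETS factors, Etv4 rose (log2 ratio 3.14, SE 0.12) and Erg fell (log2 ratio -1.59, SE 0.15).

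Of 17 factors on a fixed list of myeloid regulators, 11 were lower, 5 higher and 1 not called. Spi1, the gene of PU.1, stood at 97, 101 and 103 FPKM in CAR and 159, 176 and 176 FPKM in control-CAR libraries (log2 ratio -1.07, SE 0.068). Hif1a, the oxygen-sensitive factor, fell from 236 ± 20.3 to 140 ± 1.29 FPKM (log2 ratio -1.07, SE 0.0694), and Maf and Mitf fell by 1.76 and 1.13 on the log2 scale (SE 0.13 and 0.0839). Spi1 and Hif1a remained abundant, with each CAR library below each control-CAR library. Smaller falls were those of Cebpa (log2 change -0.59), Bach1 (-0.55, but 0.0016 on TPM) and the antioxidant response factor Nfe2l2 (-0.52, but 0.02 on TPM), and none of the 3 passed the test on TPM. Runx1 rose (log2 ratio 0.56, SE 0.0458). Myc was at 17.8 ± 0.721 against 16.3 ± 1.32 FPKM, with a log2 change of -0.17 (SE 0.0625) under TMM and 0.13 with library totals, and it lost its call without CAR replicate 1 (log2 change -0.15) or control-CAR replicate 1 (-0.13). Zeb2 did not pass the test (34.7 ± 1.2 against 30.3 ± 2.22 FPKM, log2 change -0.12), and was called higher with library totals (0.19), on FPKM (0.19) and on TPM (0.42) and lower with DESeq2 (-0.13).

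For the 20 factors with the largest ranked changes the Benjamini-Hochberg adjusted p of edgeR's quasi-likelihood test ran from 4.8e-19 to 1.3e-08. In 7 of the 10 ranked rises the 3 CAR libraries lay above all 12 other libraries of the series, the exceptions being Foxm1, Mybl2 and E2f8, and in 2 of the 10 ranked falls they lay below all 12 others. For 9 of the 10 falls the BMDM mean was above the CAR mean. In GRCm38.p6, Hmga2 (gene ID 15364) lies on chromosome 10 from 120361268 to 120476469, Klf4 (16600) on chromosome 4 from 55527137 to 55532475, and Twist2 (13345) on chromosome 1 from 91801461 to 91848034.

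**Figure D2:**
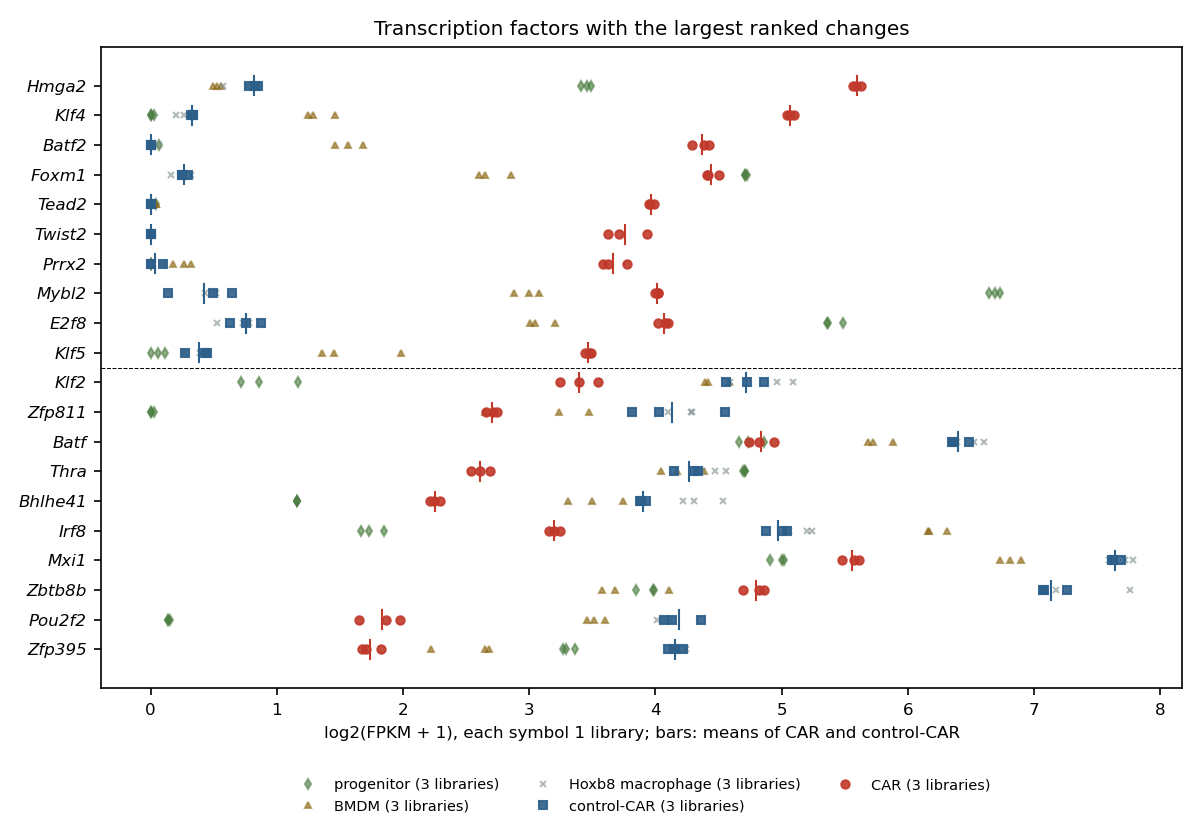
Levels of the 20 transcription factors with the largest ranked changes, as log2(FPKM + 1) in each of the 15 libraries, 10 rises above the dashed line and 10 falls under it. Each symbol is 1 library and short bars are group means of CAR and control-CAR. Hmga2 lies between 46.3 and 48.5 FPKM in CAR and under 1 FPKM in control-CAR libraries, and Mxi1 is at 43.6 to 47.8 against 195 to 205 FPKM.

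Among surface proteins, the ranked rises in CAR macrophages included growth factor and guidance receptors, and the ranked falls included lectin, cytokine and activating receptors of myeloid cells. Receptor tyrosine kinases had the highest median log2 change of the 53 families, 4.25, or 3.34 with genes at 0 in a group taken at their bound. It was the highest in each of the 5 other scalings too, at 4.29 with library totals, 4.24 with the upper quartile, 1.82 on FPKM, 2.23 on TPM and 1.21 after quantile normalisation. Members that reached 1 FPKM in the CAR libraries alone, such as Ryk, push this median up under each scaling. Of 581 tested surface proteins (1118 in the table), 266 were higher (45.8%), 229 lower (39.4%) and 86 not called, and the split turned to 226 and 269 after quantile normalisation. A change of at least 2-fold was called for 54.6%, against 31.7% of all tested genes.

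Of 23 tested receptor tyrosine kinases (50 in the table) 16 were higher and 3 lower, and more were higher in each of the 5 other scalings. Epha2, a receptor for ephrin-A ligands on neighbouring cells, had 37.8, 39.4 and 38.5 FPKM in CAR and 0 in all control-CAR libraries and was at least 662-fold higher. Fgfr1, a receptor for fibroblast growth factors, stood at 27.8, 27.7 and 28.4 FPKM in CAR and 0.11, 0.17 and 0.15 FPKM in control-CAR libraries (log2 ratio 7.28, SE 0.15). Ryk, a Wnt-binding receptor with an inactive kinase domain, had 8.24 ± 0.521 against 0 FPKM and was at least 115-fold higher, and Axl of the same family had 78.1 FPKM against counts of 0. BMDM held Epha2 at 1.14 ± 0.137 and Fgfr1 at 2.6 ± 0.267 FPKM, so the CAR libraries were above BMDM too. Gpc1, a heparan sulphate proteoglycan that serves as co-receptor for growth factors, stood at 46.9, 45.3 and 45.4 FPKM in CAR and 0.63, 0.79 and 1.14 FPKM in control-CAR libraries (log2 ratio 5.46, SE 0.12).

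Plexins and neuropilins are receptors for semaphorins. Plxna1 stood at 66.2, 68.2 and 65.2 FPKM in CAR and 0.13, 0.13 and 0.17 FPKM in control-CAR libraries (log2 ratio 8.53, SE 0.12) and Plxnb2 at 30.8, 30.2 and 30.9 FPKM in CAR and 0.04, 0.02 and 0.06 FPKM in control-CAR libraries (log2 ratio 9.26, SE 0.15). Nrp2, a neuropilin that partners plexins, rose from 0.253 ± 0.0379 to 26.2 ± 1.11 FPKM (log2 ratio 6.37, SE 0.14). The control-CAR libraries held at most 0.2 FPKM of either plexin, whereas BMDM held Plxna1 at 72.4 ± 4.07 FPKM, each library above those of CAR macrophages. Nrp2 was likewise above the CAR level in BMDM, at 80.1 ± 8.32 FPKM, and Plxnb2 below it, at 23.2 ± 1.12 FPKM. Of 33 guidance, Notch and Wnt receptors 17 were higher and 12 lower, with more higher in each of the 5 other scalings.

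The first 2 ranked rises on the log2(FPKM + 1) scale were four-span membrane proteins of the PMP22 family. Emp1 stood at 93.7, 99 and 99.8 FPKM in CAR and 0.47, 0.28 and 0.37 FPKM in control-CAR libraries (log2 ratio 7.73, SE 0.21), and Pmp22, also a myelin protein of Schwann cells, at 121, 123 and 126 FPKM in CAR and 0.88, 0.79 and 0.76 FPKM in control-CAR libraries (log2 ratio 6.94, SE 0.16). Pmp22 was also present in BMDM, at 168 ± 28.1 FPKM, while Emp1 was at 32.6 ± 6.98 FPKM there. Tspan9, a tetraspanin, had 11 ± 0.284 against 0 FPKM and was at least 213-fold higher. Ly6a, the stem cell antigen Sca-1, stood at 143, 135 and 148 FPKM in CAR and 1.67, 1.46 and 1.38 FPKM in control-CAR libraries (log2 ratio 6.26, SE 0.13), with 145 ± 6.4 FPKM in BMDM. Its relative Ly6c2, the Ly6C antigen of inflammatory monocytes, went the other way, with 24.5, 23.4 and 26 FPKM in CAR and 320, 383 and 371 FPKM in control-CAR libraries (log2 ratio -4.15, SE 0.10). Counts of Ly6 genes are uncertain where the copies share sequence.

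Itgb7, a leukocyte integrin subunit of gut homing and of mast cell precursors, stood at 146, 145 and 147 FPKM in CAR and 6.02, 5.72 and 5.44 FPKM in control-CAR libraries (log2 ratio 4.37, SE 0.0724). Itga2b, the platelet and progenitor integrin CD41, rose from 2.57 ± 0.587 to 49.6 ± 1.09 FPKM (log2 ratio 3.97, SE 0.10), and the laminin receptor subunit Itga3 had 8.64 ± 0.254 against 0 FPKM and was at least 187-fold higher. In the integrin family 9 of 20 were higher and 11 lower, and more were higher with library totals (10 and 9), on FPKM (11 and 8) and on TPM (11 and 9), with 9 and 9 under the upper quartile.

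Cytokine receptors had 21 of 40 members lower and 15 higher (18 and 18 with library totals, 17 and 20 on TPM). Il21r, the receptor for the T cell cytokine IL-21, stood at 64.6, 64 and 65.3 FPKM in CAR and 1.05, 1.06 and 1.12 FPKM in control-CAR libraries (log2 ratio 5.58, SE 0.14). Il1rl1, the IL-33 receptor ST2 of mast cells and type 2 lymphocytes, rose from 3.37 ± 0.677 to 78.4 ± 0.796 FPKM (log2 ratio 4.21, SE 0.13). Il13ra1, a subunit of the receptor through which IL-4 and IL-13 act on macrophages, stood at 6.07, 6.67 and 5.96 FPKM in CAR and 63.9, 58.6 and 60.9 FPKM in control-CAR libraries (log2 ratio -3.60, SE 0.0724). Il20rb, a subunit of receptors for IL-20 family cytokines, fell from 73.6 ± 8.65 to 5.08 ± 0.238 FPKM (log2 ratio -4.17, SE 0.14). These 4 receptors were chosen among genes without overlap between the groups. Ifngr1, a chain of the interferon gamma receptor, fell from 37 ± 1.77 to 22.5 ± 0.34 FPKM (log2 ratio -1.02, SE 0.0563). Csf2ra, the GM-CSF receptor alpha chain, had a log2 change of -0.52 (SE 0.0565) that was not called on TPM. Csf2rb, the shared beta chain, was not called (691 ± 5.59 against 544 ± 32.1 FPKM, log2 change 0.04), but was called higher with library totals (0.35), on FPKM (0.34), on TPM (0.58) and after quantile normalisation (0.47).

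Lectin and immunoglobulin-like receptors of myeloid cells were among the ranked falls. Clec12a, an inhibitory lectin receptor, stood at 3.92, 4.01 and 4.4 FPKM in CAR and 80.2, 84.2 and 80.3 FPKM in control-CAR libraries (log2 ratio -4.70, SE 0.0752). Clec4a1 and Clec4a2, neighbouring genes of the dendritic cell immunoreceptor group, were at 11.4 ± 0.728 against 105 ± 5.52 FPKM and 5.57 ± 0.656 against 46.6 ± 4.83 FPKM (log2 changes -3.50 and -3.43, SE 0.0758 and 0.12), and their counts may share reads. Cd300e and Trem3, activating myeloid receptors, had 2.24 ± 0.293 against 20.6 ± 1.91 FPKM and 2.15 ± 0.448 against 19.3 ± 1.19 FPKM (log2 changes -3.51 and -3.45). These 5 genes retained between 1.82 and 12 FPKM in each CAR library. Fcrlb, sorted by its symbol with the Fc receptors (log2 ratio -3.66, SE 0.11), and Ceacam18 (log2 ratio -3.48, SE 0.10) fell as well. Trem2, a lipid-sensing receptor of tissue macrophages, stood at 126, 131 and 129 FPKM in CAR and 242, 287 and 263 FPKM in control-CAR libraries (log2 ratio -1.34, SE 0.0736), Sirpa, the receptor for the signal CD47, at 303 ± 0.871 against 499 ± 18.6 FPKM (log2 ratio -1.03, SE 0.0671), and the high-affinity IgG receptor Fcgr1 at 3.15 ± 0.246 against 9.9 ± 0.605 FPKM (log2 ratio -1.96, SE 0.14). Cd47 itself was at 217 ± 4.9 against 212 ± 12.6 FPKM, with a log2 change of -0.21 (SE 0.0562) under TMM that reversed with library totals (0.10), on FPKM (0.04) and on TPM (0.28). Of 70 immunoglobulin-like and Fc receptors 34 were lower and 26 higher (31 and 31 with library totals, 26 and 33 on TPM). Of 64 Toll-like, lectin and scavenger receptors 29 were lower and 25 higher (25 and 30 with library totals, 24 and 30 on FPKM, 19 and 31 on TPM).

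Slamf8, whose promoter is shown above, stood at 14.3, 14 and 13.6 FPKM in CAR and 0, 0 and 0.04 FPKM in control-CAR libraries (log2 ratio 9.49, SE 0.36). Cd200r3, an activating receptor of mast cells and basophils, rose from 12.1 ± 3.29 to 114 ± 2.88 FPKM (log2 ratio 3.0, SE 0.19). With Il1rl1 it is known from mast cells, whose marker genes were higher too (9 of 10), and their part in the result was not tested. TGF-beta and TNF family receptors went both ways. Named members that rose were Tnfrsf12a, the receptor for TWEAK, at 157, 159 and 156 FPKM in CAR and 12.2, 11.3 and 13.6 FPKM in control-CAR libraries (log2 ratio 3.37, SE 0.0934) and the death receptor Tnfrsf10b at 5.11 ± 0.18 against 0.08 ± 0.04 FPKM (log2 ratio 5.67, SE 0.21). Acvr1, a receptor for bone morphogenetic proteins, rose (log2 ratio 4.42, SE 0.24), and Tgfbr2 had a log2 change of -0.41 (SE 0.067) that was not called with library totals (-0.10) or on FPKM (-0.10) and was called higher on TPM (0.13). Of 33 TGF-beta and TNF family receptors 14 were higher and 14 lower, with more higher under library totals (16 and 13), upper quartile (15 and 14), FPKM (16 and 12) and TPM (19 and 9) and fewer after quantile normalisation (10 and 14).

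Chemoattractant receptors had 11 of 23 higher and 6 lower (9 and 9 after quantile normalisation). Ccr2, the receptor for the monocyte chemokine CCL2, stood at 14.3, 14.7 and 14 FPKM in CAR and 1.41, 0.67 and 0.84 FPKM in control-CAR libraries (log2 ratio 3.57, SE 0.19). Fpr2, a formyl peptide receptor, rose from 92.2 ± 4.22 to 367 ± 14.8 FPKM (log2 ratio 1.69, SE 0.0709), and Ptafr, the receptor for platelet-activating factor, from 20.6 ± 1.02 to 74.6 ± 1.36 FPKM (log2 ratio 1.55, SE 0.0683). Among other G protein-coupled receptors Gprc5a had 23.2 ± 0.11 against 0 FPKM and was at least 194-fold higher, and F2r, the thrombin receptor PAR1, rose (log2 ratio 4.66, SE 0.14), as did the latrophilin gene Adgrl2 (log2 ratio 5.87, SE 0.16). Adgrl2 was at 20.9 ± 0.0351 FPKM in CAR libraries and 58.8 ± 8.73 FPKM in BMDM. Of the channel genes, Clic5 stood at 38.7, 37.5 and 37.1 FPKM in CAR and 0.15, 0.2 and 0.18 FPKM in control-CAR libraries (log2 ratio 7.43, SE 0.13), and the water channel Aqp8 (log2 ratio 4.42, SE 0.25) and the lysosomal channel Mcoln2 (log2 ratio 4.14, SE 0.17) rose. Mcoln2 was at 10.2 ± 0.287 FPKM in CAR libraries and 11.8 ± 1.11 FPKM in BMDM. In 7 of the 10 ranked rises among surface proteins the CAR libraries lay above all 12 other libraries, the exceptions being Pmp22, Plxna1 and Ly6a, and in 3 of the 10 ranked falls they lay below all 12. For the 20 genes the Benjamini-Hochberg adjusted p of edgeR's quasi-likelihood test ran from 1.9e-19 to 4.0e-14. In GRCm38.p6, Epha2 (gene ID 13836) lies on chromosome 4 from 141301221 to 141329384, Plxna1 (18844) on chromosome 6 from 89316313 to 89362613, and Clec12a (232413) on chromosome 6 from 129349783 to 129365303.

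**Figure D3:**
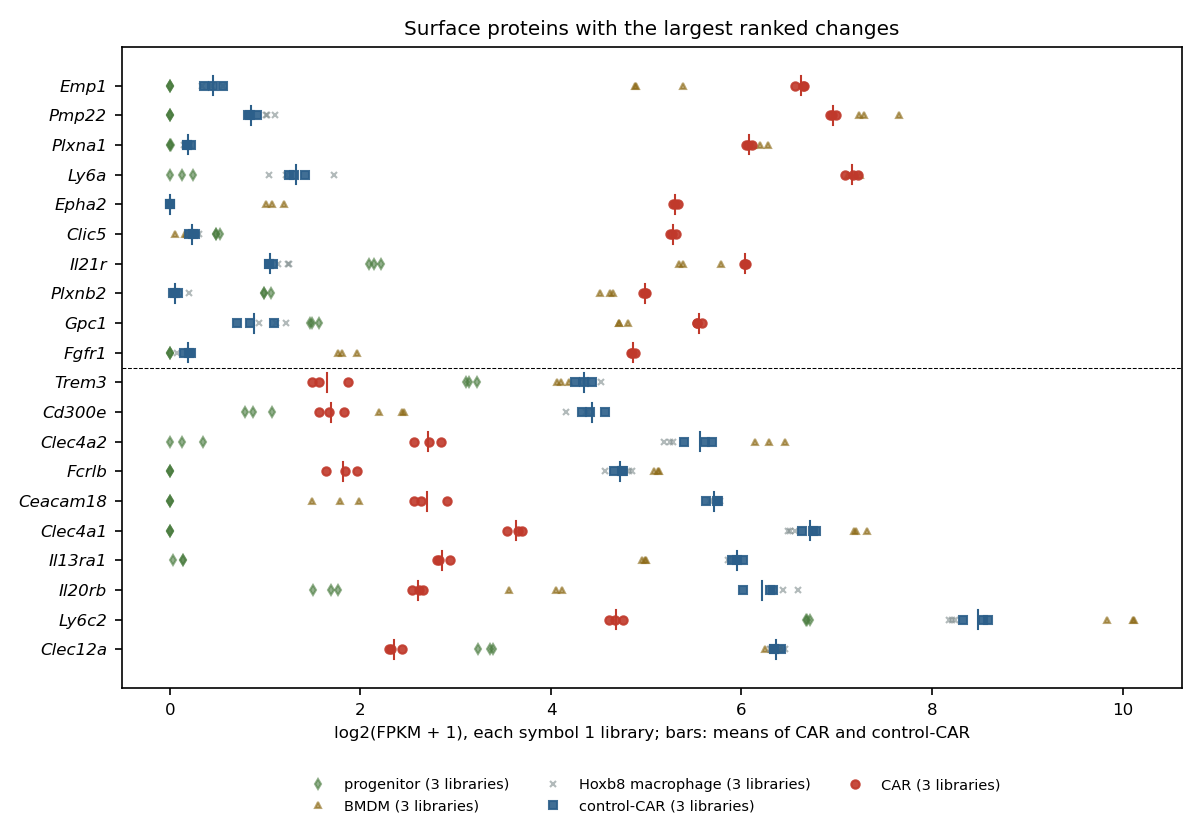
Levels of the 20 surface proteins with the largest ranked changes, as log2(FPKM + 1) in each of the 15 libraries, 10 rises above the dashed line and 10 falls under it. Each symbol is 1 library and short bars are group means of CAR and control-CAR. Epha2 is at 37.8 to 39.4 FPKM in CAR and at 0 in control-CAR libraries, and Clec12a at 3.92 to 4.40 against 80.2 to 84.2 FPKM.

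Of the 4 classes, secreted factors had the highest share of changes of at least 2-fold. Matrix proteins, growth factors and mast cell proteases were among the ranked rises in CAR macrophages, and stefins, coagulation proteins and haptoglobin among the ranked falls. Of 425 tested secreted factors (857 in the table), 217 were higher (51.1%), 150 lower (35.3%) and 58 not called, and more were higher in each of the 5 other scalings. A change of at least 2-fold was called for 68.5%, against 31.7% of all tested genes. The median log2 change was 0.56, or 0.46 with genes at 0 in a group taken at their bound (0.06 and 0.05 over all tested genes). It was 0.87 with library totals and 0.0586 after quantile normalisation, where the median over all tested genes was 0.37 and -0.0935.

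Of 58 tested extracellular matrix genes (129 in the table) 41 were higher and 13 lower, and more were higher in each of the 5 other scalings. The median log2 change was 2.03 (1.89 with genes at their bound, 1.02 after quantile normalisation). Fbln2, an elastic fibre-associated glycoprotein, had 76.5, 76.3 and 75.3 FPKM in CAR and 0 in all control-CAR libraries and was at least 1448-fold higher. Fn1, the cell adhesion glycoprotein fibronectin, stood at 44, 45.5 and 43.7 FPKM in CAR and 0.01, 0.02 and 0.02 FPKM in control-CAR libraries (log2 ratio 11.47, SE 0.22), with 16.2 ± 2.05 FPKM in BMDM. Efemp2, fibulin-4, had 24.3 ± 0.91 against 0 FPKM and was at least 153-fold higher. All CAR libraries held more of these 3 transcripts than any other library of the series. Serpinh1, sorted by its symbol with the protease inhibitors, is a chaperone for collagen in the endoplasmic reticulum. It had 79.6, 83.5 and 81.4 FPKM in CAR and 0 in all control-CAR libraries and was at least 750-fold higher. Spp1, the macrophage matrix protein osteopontin, fell from 491 ± 13.4 to 207 ± 2.93 FPKM (log2 ratio -1.55, SE 0.0789). Of 7 tested fibroblast genes, the 4 that were higher (Col1a1, Col1a2, Dcn and Sparc) code for matrix proteins themselves. Their rise is therefore not separate from that of the matrix genes. Pdgfrb and Thy1 were lower (log2 changes -1.87 and -1.41), and the part of fibroblast genes in the result was not tested.

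Growth factors had 27 of 44 tested members (86 in the table) higher and 11 lower. Their median log2 change was 2.07 (1.80 with genes at their bound, 1.10 on FPKM, 1.37 on TPM and 0.52 after quantile normalisation). TGF-beta, BMP and Wnt ligands and inhibitors had 15 of 21 tested (68 in the table) higher and 2 lower, with a median of 2.66 (1.20 on FPKM, 1.52 on TPM and 0.85 after quantile normalisation). More were higher in each of the 5 other scalings in both families. Ccn1, a matricellular protein known as a target of YAP, had 28.3, 27.6 and 27.1 FPKM in CAR and 0 in all control-CAR libraries and was at least 225-fold higher. Ereg, the EGF receptor ligand epiregulin, had 14.3, 14.2 and 14 FPKM in CAR and 0 in all control-CAR libraries and was at least 257-fold higher. BMDM held Ereg at 2.05 ± 1.56 FPKM. Fst, the activin inhibitor follistatin, rose from 1.65 ± 0.229 to 50.8 ± 3.67 FPKM (log2 ratio 4.64, SE 0.11), and its relative Fstl1 had 8.56 ± 0.476 against 0 FPKM and was at least 134-fold higher. In BMDM, Fst was at 59.1 ± 4.39 and Fstl1 at 9.82 ± 2.45 FPKM. Gdf15, a stress-induced member of the TGF-beta superfamily, was among the 2 that fell, with 0.84, 0.56 and 0.71 FPKM in CAR and 20.7, 21.7 and 24 FPKM in control-CAR libraries (log2 ratio -5.35, SE 0.20). Vegfa, the growth factor of blood vessels, fell from 420 ± 59.5 to 154 ± 4.37 FPKM (log2 ratio -1.73, SE 0.10). Tgfb1 was at 181 ± 2.42 against 196 ± 19.4 FPKM, with a log2 change of -0.42 (SE 0.0931). Its libraries overlapped between the groups, and it was not called with library totals (-0.11), on FPKM (-0.11) or on TPM (0.13).

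Secreted proteases had 34 of 62 members higher and 18 lower, with more higher in each of the 5 other scalings. The tryptase gene Tpsb2 stood at 324, 325 and 340 FPKM in CAR and 6.85, 3.64 and 4.24 FPKM in control-CAR libraries (log2 ratio 5.77, SE 0.19), and the neighbouring tryptase gene Tpsg1 at 67.7, 67.9 and 72 FPKM in CAR and 0.64, 0.61 and 0.29 FPKM in control-CAR libraries (log2 ratio 6.80, SE 0.20). Gzmb, the cytotoxic granule protease granzyme B, had 51.1, 52.5 and 55.5 FPKM in CAR and 0 in all control-CAR libraries and was at least 302-fold higher. Tryptases are mast cell products and Tpsb2 is 1 of the 9 mast cell and basophil genes that were higher. Gzmb is known from cytotoxic lymphocytes and also from mast cells, and in the CAR libraries T and NK cell genes summed to 0.09 to 0.27 FPKM. The part of mast cell genes in these results was not tested. F13a1, the coagulation factor XIII A chain of monocytes and macrophages, stood at 3.1, 3.9 and 3.69 FPKM in CAR and 84.7, 86.1 and 83.7 FPKM in control-CAR libraries (log2 ratio -4.88, SE 0.0795), and F7, coagulation factor VII, fell from 39.2 ± 2.87 to 2.99 ± 0.362 FPKM (log2 ratio -4.02, SE 0.10). BMDM held F13a1 at 4.44 ± 0.42 FPKM, near the CAR level, and progenitor cells at 248 ± 11.2 FPKM.

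Protease inhibitors went both ways, with 25 of 50 higher and 20 lower (21 and 22 after quantile normalisation). Timp1, the inhibitor of matrix metalloproteinases, stood at 155, 157 and 158 FPKM in CAR and 3.74, 5.76 and 4.41 FPKM in control-CAR libraries (log2 ratio 4.77, SE 0.12), and Serpina3f at 88.9, 85.3 and 90.9 FPKM in CAR and 0.45, 0.23 and 0.29 FPKM in control-CAR libraries (log2 ratio 7.82, SE 0.13). Cstdc4, a stefin A family inhibitor of cathepsins, stood at 2202, 2413 and 2483 FPKM in CAR and 28735, 22103 and 24237 FPKM in control-CAR libraries (log2 ratio -3.64, SE 0.12). It was the most abundant named gene in both groups. Csta3 (log2 ratio -4.56, SE 0.23) and Stfa1 (log2 ratio -4.16, SE 0.21) of the same family and Wfdc21 (log2 ratio -4.28, SE 0.10) also fell. Serpina3 and stefin A genes lie in arrays of near-identical copies, so the share of each copy is uncertain.

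Of 23 chemokines 13 were lower and 9 higher, and of 13 TNF family ligands 6 were lower and 3 higher, with more lower in each of the 5 other scalings. Ccl4, a chemokine of activated macrophages, stood at 503, 564 and 586 FPKM in CAR and 2839, 3422 and 3118 FPKM in control-CAR libraries (log2 ratio -2.79, SE 0.10). Ccl2, the ligand of CCR2, stood at 2089, 2195 and 2197 FPKM in CAR and 625, 393 and 522 FPKM in control-CAR libraries (log2 ratio 1.79, SE 0.17) and Cxcl16, a ligand of CXCR6 on T cells, at 255, 256 and 266 FPKM in CAR and 26.4, 32.3 and 29.4 FPKM in control-CAR libraries (log2 ratio 2.83, SE 0.0851). Ccl2 and its receptor gene Ccr2 thus both rose. For Cxcl16 the BMDM level, 312 ± 12.4 FPKM, was above that of the CAR libraries. Of 36 interleukins and haematopoietic cytokines 18 were lower and 13 higher (16 and 16 with library totals, 14 and 17 on TPM). Il1f6, which encodes IL-36 alpha, stood at 17.1, 20.6 and 22.6 FPKM in CAR and 211, 190 and 181 FPKM in control-CAR libraries (log2 ratio -3.56, SE 0.11), and Il18bp, the soluble inhibitor of IL-18, at 87.8, 88.5 and 93.9 FPKM in CAR and 3.97, 5.14 and 5.47 FPKM in control-CAR libraries (log2 ratio 4.02, SE 0.0845). Clcf1, a cytokine of the IL-6 family, rose (log2 ratio 5.69, SE 0.21). Tnfsf14, the T cell costimulator LIGHT, rose from 2.44 ± 0.56 to 16.9 ± 0.972 FPKM (log2 ratio 2.49, SE 0.14), while Tnfsf13b, the B cell survival factor BAFF, fell from 6.21 ± 0.295 to 1.01 ± 0.07 FPKM (log2 ratio -2.94, SE 0.18) and Tnfsf9 fell by 1.0 on the log2 scale (SE 0.10). Il1rn, the antagonist of the IL-1 receptor, fell (log2 ratio -1.05, SE 0.0922). Csf1, the macrophage growth factor, did not pass the test (268 ± 4.21 against 219 ± 8.49 FPKM, log2 change -0.02, SE 0.0676), and was called higher with library totals (0.29), on FPKM (0.29), on TPM (0.53) and after quantile normalisation (0.24).

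Complement, antimicrobial and acute phase proteins had 28 of 54 members lower and 18 higher (22 and 23 on TPM). Hp, the haemoglobin-binding protein haptoglobin, stood at 142, 132 and 141 FPKM in CAR and 1341, 1416 and 1292 FPKM in control-CAR libraries (log2 ratio -3.59, SE 0.10). C1s1, a protease of the classical complement pathway, rose from 0.65 ± 0.114 to 37.5 ± 1.91 FPKM (log2 ratio 5.54, SE 0.13), and the fibrinogen-like gene Fgl2 from 5.45 ± 1.22 to 77.6 ± 1.9 FPKM (log2 ratio 3.53, SE 0.11). Apol9a had 6.07 ± 0.403 against 0 FPKM and was at least 34.1-fold higher, and its near-identical copy Apol9b had 5.37 ± 0.248 against 0.0667 ± 0.0764 FPKM, so the split between the 2 is uncertain. Lgals7, a galectin of stratified epithelia, had 9.88 ± 1.03 against 0 FPKM and was at least 15-fold higher, beside epithelial genes of which 3 of 5 were higher, and their part in the result was not tested. Among hormones and neuropeptides, the natriuretic peptide gene Nppb had 19 ± 0.379 against 0 FPKM and was at least 42.8-fold higher, and Nucb2 (log2 ratio 4.92, SE 0.12) and Retn (log2 ratio 3.71, SE 0.39) rose. Nucb2 was at 27.1 ± 0.385 FPKM in CAR libraries and 45.4 ± 2.22 FPKM in BMDM. Apoe was low in both groups, at 2.76 ± 0.494 against 1.29 ± 0.367 FPKM (log2 ratio 0.81, SE 0.18), with a log2 change of -0.0042 after quantile normalisation.

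In all of the 10 ranked rises among secreted factors the CAR libraries lay above all 12 other libraries of the series, and in 3 of the 10 ranked falls they lay below all 12. In 8 of the 10 falls the BMDM libraries too lay below all control-CAR libraries. For the 20 genes the Benjamini-Hochberg adjusted p of edgeR's quasi-likelihood test ran from 4.8e-19 to 2.0e-11. In GRCm38.p6, Fbln2 (gene ID 14115) lies on chromosome 6 from 91212460 to 91272540, Serpinh1 (12406) on chromosome 7 from 99345375 to 99353239, and F13a1 (74145) on chromosome 13 from 36867178 to 37050244.

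**Figure D4:**
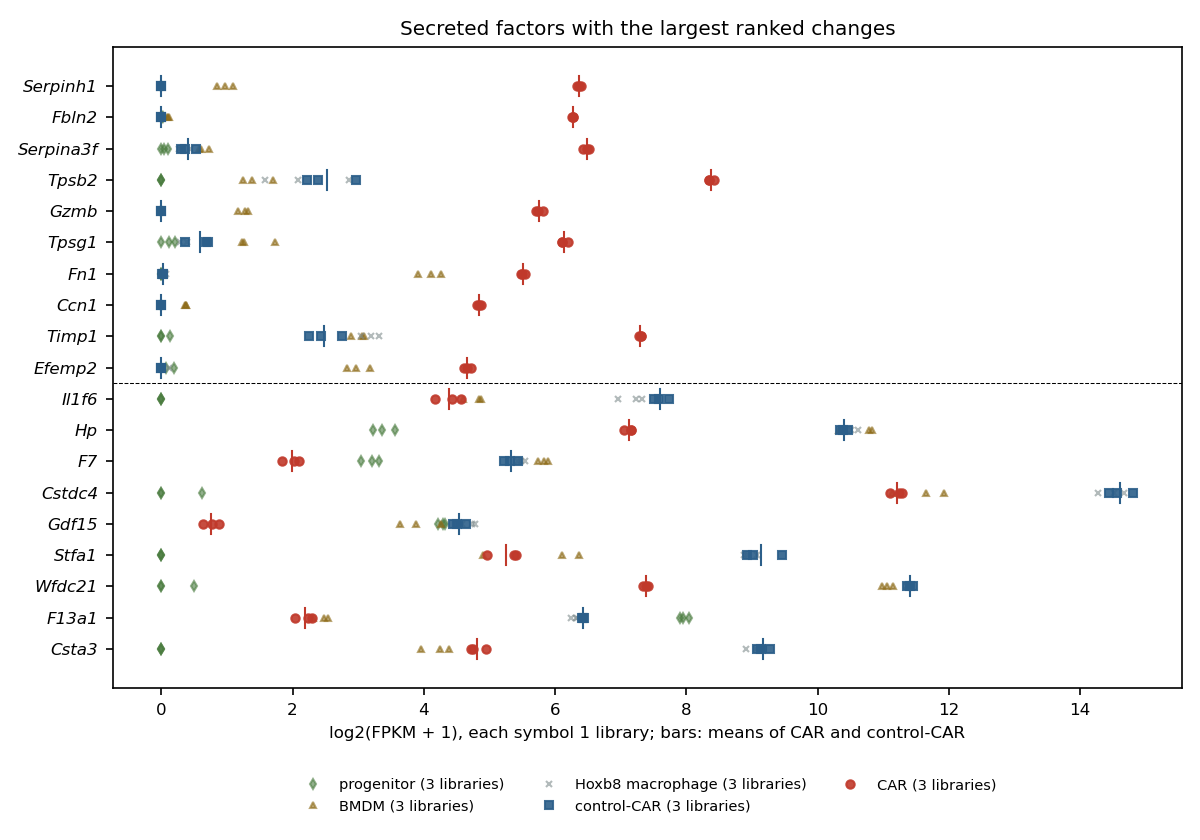
Levels of 19 of the 20 secreted factors with the largest ranked changes, as log2(FPKM + 1) in each of the 15 libraries, 10 rises above the dashed line and 9 falls under it. Each symbol is 1 library and short bars are group means of CAR and control-CAR. Fbln2 is at 75.3 to 76.5 FPKM in CAR and at 0 in control-CAR libraries, and F13a1 at 3.10 to 3.90 against 83.7 to 86.1 FPKM.

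Metabolic genes changed by family. Serine, one-carbon and nucleotide enzymes were mostly higher in CAR macrophages, glycolytic, glycogen and redox enzymes mostly lower except on TPM, and the respiratory chain had the lowest share of changes of at least 2-fold among the 53 families. Of 1244 tested enzymes and transporters (1699 in the table), 465 were higher (37.4%), 537 lower (43.2%) and 242 not called. This split turned with library totals (637 and 391), the upper quartile (500 and 490), FPKM (634 and 395) and TPM (767 and 307). A change of at least 2-fold was called for 34.3%, against 31.7% of all tested genes.

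Of 31 serine and one-carbon enzymes 21 were higher and 7 lower (median log2 change 1.05, and 0.51 after quantile normalisation), and of 100 nucleotide enzymes 56 were higher and 32 lower (median 0.37, from 0.0889 after quantile normalisation to 0.76 on TPM), with more higher in each of the 5 other scalings in both families. Phgdh, which commits a glycolytic intermediate to serine synthesis, stood at 150, 148 and 154 FPKM in CAR and 18.2, 13.1 and 15.1 FPKM in control-CAR libraries (log2 ratio 2.99, SE 0.13). Shmt2, the mitochondrial enzyme that passes a carbon unit from serine to folate, stood at 69.5, 71.7 and 72.1 FPKM in CAR and 9.04, 7.15 and 7.67 FPKM in control-CAR libraries (log2 ratio 2.86, SE 0.12), and its cytosolic counterpart Shmt1 at 10.1 ± 0.595 against 0.393 ± 0.0643 FPKM (log2 ratio 4.39, SE 0.15). The FPKM of Phgdh and Shmt2 did not overlap between the groups, as held for 82.1% of all tested genes. Tk1, the S phase thymidine kinase, stood at 17.7, 18.7 and 20.1 FPKM in CAR and 0.44, 0.34 and 0.39 FPKM in control-CAR libraries (log2 ratio 5.88, SE 0.21), below its progenitor level of 66.7 ± 2.26 FPKM. Ctps, which makes CTP, rose from 1.57 ± 0.22 to 21.7 ± 0.54 FPKM (log2 ratio 3.48, SE 0.0914), as did the deoxycytidylate deaminase gene Dctd (log2 ratio 5.58, SE 0.18).

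Some named genes act on monoamines. Tph1, the enzyme that starts serotonin synthesis outside the brain, stood at 54.7, 50.7 and 52.9 FPKM in CAR and 0.21, 0.57 and 0.2 FPKM in control-CAR libraries (log2 ratio 7.63, SE 0.17). Slc18a2, the transporter that loads monoamines into vesicles, stood at 14.7, 13.8 and 14.2 FPKM in CAR and 0.22, 0.16 and 0.11 FPKM in control-CAR libraries (log2 ratio 6.13, SE 0.26), and Maoa, which degrades monoamines, at 5.63 ± 0.362 against 0.02 ± 0.0265 FPKM (log2 ratio 7.75, SE 0.25). For Tph1 no other library of the series exceeded 1 FPKM. Hpgds, the haematopoietic prostaglandin D synthase, rose from 0.737 ± 0.261 to 13 ± 0.57 FPKM (log2 ratio 3.80, SE 0.15). Tph1, Slc18a2 and Hpgds are known from mast cells, whose marker genes were higher too (9 of 10), and their part in the result was not tested.

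In polyamine and amino acid metabolism, Srm, spermidine synthase, stood at 115, 115 and 119 FPKM in CAR and 8.08, 9.53 and 9.29 FPKM in control-CAR libraries (log2 ratio 3.40, SE 0.0894), while Azin2, an activator of polyamine synthesis, stood at 7.65, 7.14 and 7.2 FPKM in CAR and 63.5, 63.2 and 64 FPKM in control-CAR libraries (log2 ratio -3.44, SE 0.08). The creatine kinase gene Ckb fell (log2 ratio -2.96, SE 0.14). Glul, glutamine synthetase, rose (log2 ratio 1.36, SE 0.0917). Of 68 amino acid enzymes 27 were higher and 27 lower, with more higher under library totals (31 and 22), upper quartile (28 and 26), FPKM (33 and 22) and TPM (38 and 19) and fewer after quantile normalisation (22 and 39). Among transporters, Slc7a5, the large neutral amino acid carrier, rose from 4.37 ± 0.714 to 50.5 ± 0.282 FPKM (log2 ratio 3.23, SE 0.16), and Slc36a4, another amino acid carrier, stood at 15.6, 15.5 and 14.7 FPKM in CAR and 0.03, 0.04 and 0.04 FPKM in control-CAR libraries (log2 ratio 8.24, SE 0.14). BMDM held Slc36a4 at 16.2 ± 0.477 FPKM, each library above those of CAR macrophages. Slc39a4, a zinc importer, fell from 107 ± 8.11 to 12.1 ± 0.61 FPKM (log2 ratio -3.36, SE 0.095), as did Mfsd9 (log2 ratio -3.26, SE 0.0892).

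Sugar metabolism genes were mostly lower, with 49 of 82 lower and 20 higher (35 and 36 on TPM). Aldoc, an aldolase isoform, stood at 2.53, 2.81 and 2.78 FPKM in CAR and 24.6, 29 and 27.2 FPKM in control-CAR libraries (log2 ratio -3.62, SE 0.11), and Gbe1, the branching enzyme of glycogen, at 15, 14.8 and 14.2 FPKM in CAR and 76.2, 64.9 and 68.5 FPKM in control-CAR libraries (log2 ratio -2.56, SE 0.0768). G6pdx, the entry enzyme of the pentose phosphate pathway, fell from 145 ± 2.83 to 92 ± 1.88 FPKM (log2 ratio -0.96, SE 0.0845). An exception was Eno3, the muscle enolase isoform, at 31.1, 33.1 and 34.4 FPKM in CAR and 2.52, 1.6 and 1.56 FPKM in control-CAR libraries (log2 ratio 2.51, SE 0.11). In the TCA cycle and pyruvate family 19 of 45 were higher and 15 lower, with more higher in each of the 5 other scalings. Me1, the cytosolic malic enzyme that makes NADPH, stood at 9.32, 9.23 and 8.87 FPKM in CAR and 0.02, 0.02 and 0.06 FPKM in control-CAR libraries (log2 ratio 7.76, SE 0.21), the mitochondrial isoform Me3 rose (log2 ratio 2.92, SE 0.18), and Suclg2, a subunit of succinate-CoA ligase, rose (log2 ratio 1.95, SE 0.0949). Acod1, which makes itaconate in activated macrophages, fell from 2173 ± 103 to 1045 ± 8.88 FPKM (log2 ratio -1.36, SE 0.0732).

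Of 102 respiratory chain genes 30 were higher, 29 lower and 43 not called, with a median log2 change of 0.00022 that reached 0.51 on TPM. Under library totals the split was 68 and 12, and more were higher in each of the 5 other scalings. A change of at least 2-fold was called for 6.86%, against 31.7% of all tested genes. The ranked falls included Cox7a2l, a supercomplex assembly factor, from 402 ± 32.1 to 133 ± 1.09 FPKM (log2 ratio -1.90, SE 0.0711), and the complex I subunit Ndufv3 (log2 ratio -1.66, SE 0.0848).

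Lipid enzymes moved in opposite directions within families. Scd1, a stearoyl-CoA desaturase that makes monounsaturated fatty acids, stood at 10.7, 11 and 10 FPKM in CAR and 0, 0.01 and 0.01 FPKM in control-CAR libraries (log2 ratio 9.79, SE 0.25), while its paralog Scd2 stood at 36, 35.4 and 36.7 FPKM in CAR and 198, 229 and 229 FPKM in control-CAR libraries (log2 ratio -2.91, SE 0.10). The 2 isoforms thus moved apart, with Scd2 still the more abundant in CAR libraries. Fasn, fatty acid synthase, rose from 5.24 ± 0.681 to 27.3 ± 0.422 FPKM (log2 ratio 2.07, SE 0.14). Of 62 fatty acid and sterol synthesis enzymes 27 were lower and 20 higher (24 and 27 with library totals, 25 and 27 on FPKM, 17 and 32 on TPM). Cpt1a, which admits fatty acids to mitochondria, rose from 5.47 ± 0.26 to 21.7 ± 0.58 FPKM (log2 ratio 1.68, SE 0.0615), while the peroxisomal enzyme Phyh fell (log2 ratio -1.82, SE 0.0942). The oxidation family had 27 of 51 lower and 13 higher (20 and 21 with library totals and on FPKM, 10 and 28 on TPM). Ptgr1, a reductase that inactivates eicosanoids, stood at 35.1, 33.7 and 32.2 FPKM in CAR and 447, 427 and 412 FPKM in control-CAR libraries (log2 ratio -3.98, SE 0.0653), and Mgst2, which can form leukotriene C4, fell from 171 ± 6.69 to 27.8 ± 2.99 FPKM (log2 ratio -2.93, SE 0.10). Among phospholipid and sphingolipid genes Mboat1 (log2 ratio 4.50, SE 0.15), Plaat3 (log2 ratio 5.0, SE 0.25) and the lipid phosphatase genes Plpp2 (log2 ratio 2.72, SE 0.0909) and Plpp1 (log2 ratio 1.60, SE 0.12) rose and Smpd5 fell (log2 ratio -2.20, SE 0.10).

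Some named genes act on heparan sulphate. Ext1, a polymerase of the chain, stood at 13.5, 13.7 and 13.7 FPKM in CAR and 0.09, 0.02 and 0.02 FPKM in control-CAR libraries (log2 ratio 7.97, SE 0.23), and Hs3st1, a sulphotransferase acting on it, at 11.5, 11.9 and 12.7 FPKM in CAR and 0.09, 0.04 and 0 FPKM in control-CAR libraries (log2 ratio 7.74, SE 0.35). Hpse, the heparanase that cuts the chain, stood at 3.5, 3.76 and 3.6 FPKM in CAR and 23.8, 26.5 and 25.2 FPKM in control-CAR libraries (log2 ratio -3.10, SE 0.16). The core protein gene Gpc1, above, rose with the 2 synthesis genes, and the gene of the degrading enzyme fell. The family of carbonic anhydrases, sulphatases and glycosyltransferases had 49 of 103 lower and 40 higher (39 and 50 with library totals, 40 and 49 on FPKM, 34 and 57 on TPM).

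Oxidoreductases included several genes with a count of 0 in all control-CAR libraries. Cyp1b1, a cytochrome P450 known as a target of the aryl hydrocarbon receptor, had 17.1, 16.3 and 15.9 FPKM in CAR and 0 in all control-CAR libraries and was at least 339-fold higher, with 25 ± 1.51 FPKM in BMDM. Cyp11a1, which cuts the side chain of cholesterol to start steroid synthesis, stood at 308, 307 and 320 FPKM in CAR and 42.1, 43 and 46.9 FPKM in control-CAR libraries (log2 ratio 2.52, SE 0.063), and Hsd11b1, which activates glucocorticoids, at 7.85, 8 and 10 FPKM in CAR and 52.4, 53 and 49.1 FPKM in control-CAR libraries (log2 ratio -2.88, SE 0.10). The first steroid gene thus rose and the second fell. Steap1 and Steap2, metal reductases of the cell membrane, had 21.2 ± 1.23 against 0 FPKM and 9.88 ± 0.306 against 0 FPKM and were higher by at least 90.9-fold (Steap1) and 342-fold (Steap2). Gpx8, a peroxidase of the endoplasmic reticulum sorted by symbol with the eicosanoid enzymes, had 19.2, 23.9 and 24.1 FPKM in CAR and 0 in all control-CAR libraries and was at least 70.6-fold higher. Nqo1, a quinone reductase, rose from 1.21 ± 0.175 to 23.1 ± 0.542 FPKM (log2 ratio 3.95, SE 0.17), and Prdx4 rose as well (log2 ratio 2.65, SE 0.0789). In the redox family as a whole 41 of 67 were lower and 14 higher (27 and 33 on TPM), among them Glrx, glutaredoxin, which fell from 575 ± 19.2 to 142 ± 7.74 FPKM (log2 ratio -2.32, SE 0.0834). Hmox1, haem oxygenase, fell from 3134 ± 23.9 to 1700 ± 20.2 FPKM (log2 ratio -1.18, SE 0.0641), and Hfe, a regulator of iron uptake, fell (log2 ratio -3.27, SE 0.12).

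ABC transporters and ion pumps had 36 of 73 members lower and 23 higher (26 and 34 with library totals, 26 and 32 on FPKM, 24 and 45 on TPM). Abca9 fell from 6.71 ± 0.111 to 0.153 ± 0.0252 FPKM (log2 ratio -5.71, SE 0.16), the drug efflux pump gene Abcb1b rose (log2 ratio 2.51, SE 0.10), and so did Atp6v0d2, a proton pump subunit of osteoclasts and macrophages (log2 ratio 2.47, SE 0.15). In 7 of the 10 ranked metabolic rises the CAR libraries lay above all 12 other libraries, the exceptions being Cyp1b1, Slc36a4 and Tk1, and in 5 of the 10 ranked falls they lay below all 12. For the 20 genes the Benjamini-Hochberg adjusted p of edgeR's quasi-likelihood test ran from 4.8e-19 to 2.8e-09. In GRCm38.p6, Tph1 (gene ID 21990) lies on chromosome 7 from 46644641 to 46672537, Phgdh (236539) on chromosome 3 from 98313171 to 98339969, and Ptgr1 (67103) on chromosome 4 from 58965590 to 58987131.

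**Figure D5:**
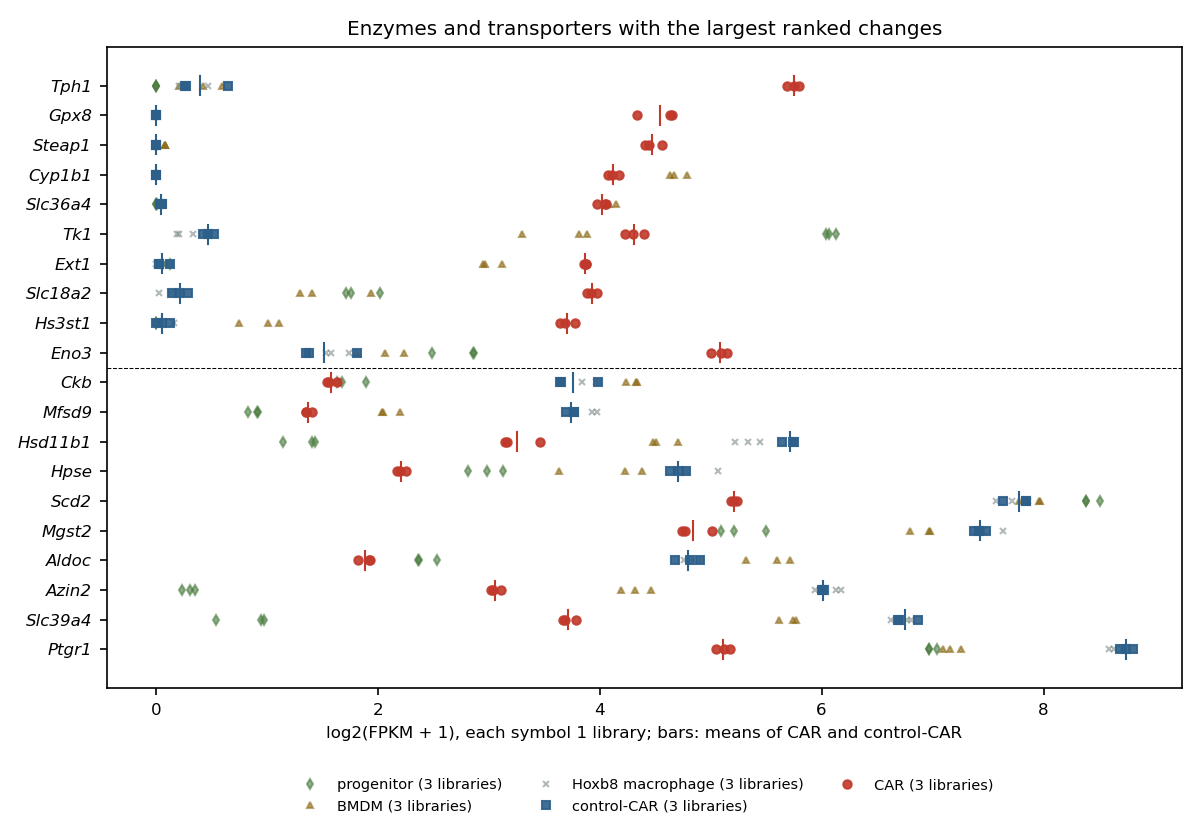
Levels of the 20 enzymes and transporters with the largest ranked changes, as log2(FPKM + 1) in each of the 15 libraries, 10 rises above the dashed line and 10 falls under it. Each symbol is 1 library and short bars are group means of CAR and control-CAR. Tph1 is at 50.7 to 54.7 FPKM in CAR and under 1 FPKM in control-CAR libraries, and Ptgr1 at 32.2 to 35.1 against 412 to 447 FPKM.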

How the data were processed

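The data were mRNA sequencing of 15 libraries from mouse bone marrow cells, of which the 3 CAR and 3 control-CAR libraries were compared. Per the labels' protocols, poly(A) RNA was selected with oligo(dT) and copied with random hexamers. Build GRCm38.p6, RSEM 1.3.1, DESeq2 1.4.5, HISAT2 and Bowtie2 (both with no version) are listed in the submitters' processing notes. Their order, the gene annotation and whether counting used strand were not given in the sources used here. Per the file headers, the authors deposited estimated counts without scaling, with 94.4% to 96.0% of a library's values whole, and, beside them, FPKM and TPM values of the authors. The 15 columns of averages were not used here, and 25 symbols that had become dates were restored from gene identifiers. Coordinates came from RefSeq, which matched 16978 of 17030 identifiers.

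Counts were rounded. Genes with at least 1 FPKM in at least 3 of the 15 libraries entered edgeR's quasi-likelihood test (two-sided, a mean per group over all 15 libraries, 10 residual degrees of freedom, TMM, Benjamini-Hochberg). Classes and families were picked by symbol patterns. Named genes were, on the log2(FPKM + 1) scale, the 10 largest rises and 10 largest falls of each class with at least 10 FPKM in the higher group, up to 3 per family with at least 5 FPKM, the 8 largest each way outside the classes, and a fixed list, and some of these genes are not reported here. Those of the first 3 kinds were called, did not overlap between groups and had not been described before. The members and lists were chosen with earlier results of these data known. Alternatives were library totals, the upper quartile, DESeq2, limma on log2 FPKM with pseudocounts of 1 and 0.1, on TPM and after quantile normalisation, no filter and a filter of 5 FPKM, a fit to the 2 groups alone, a replicate block, and leaving out each library. In simulated data (11793 genes) the CAR mean was set to the control-CAR mean, except in 67, 67 and 66 genes changed 1.5-, 2- and 4-fold. As many of these were raised as lowered, and none had low counts. The share recovered was 83.6% at 1.5-fold, 95.5% at 2-fold and 98.5% at 4-fold, and the test called 9 of 11593 unchanged genes. In the data 78.7% of tested genes were called, so the simulation, with few and balanced changes, cannot show the error from scaling. The software was Python 3.11.15, DESeq2 1.42.0, limma 3.58.1 and edgeR 4.0.16 under R 4.3.3.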

Additional observations from a re-analysis of the deposited data

How the results depend on the processing

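Of 234 named genes with a test, 219 kept their direction and call in all 17 alternatives, and 232 kept their call with each single library left out, Myc being 1 of the 2 exceptions. Counts moved with the scaling. On TPM, 8018 genes were higher and 1933 lower, among them 470 and 101 transcription factors and 767 and 307 metabolic genes. The number of lower genes was 2770 with library totals, 2770 on FPKM with a pseudocount of 1 and 2766 with 0.1, and that of lower transcription factors 146, 140 and 142, against 386 after quantile normalisation. A filter of 5 FPKM tested fewer genes and left 187 higher transcription factors and 173 higher surface proteins. Directions reversed under another scaling for 9 named genes, with log2 changes given here in the order library totals, FPKM with a pseudocount of 1, FPKM with 0.1 and TPM. They were 0.135, 0.123, 0.129 and 0.355 for Myc, 0.189, 0.188, 0.193 and 0.424 for Zeb2, 0.102, 0.0367, 0.0369 and 0.275 for Cd47, and 0.289, 0.292, 0.293 and 0.53 for Csf1, which was also at 0.243 after quantile normalisation. TPM reversed Bach1 (0.00159), Nfe2l2 (0.0218), Tgfbr2 (0.134) and Tgfb1 (0.129), and quantile normalisation reversed Apoe (-0.00424). Uncalled values that changed sign and stayed uncalled were those of Csf2rb without control-CAR replicate 1 (-0.032) and of Csf1 without control-CAR replicate 2 (0.0247) and under the upper quartile (0.0547). Why these scalings differ was not tested. With each library left out in turn, 4718 to 4942 genes were higher and 4151 to 4246 lower. Libraries with the same replicate number in both groups did not deviate together (correlations -0.023, 0.011 and 0.006), and not every library correlated best with its own number. With the replicate number as a block 4908 genes were higher and 4296 lower. Groups of 3 limit what the test can resolve, and genes near 0 in both groups cannot show a difference at this depth.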

Other observations

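Among the 8833 tested genes of no class, the 8 ranked rises included genes of interferon responses, of the matrix and of translation. Ifitm1, an interferon-induced membrane protein, stood at 894, 957 and 924 FPKM in CAR and 18.2, 8.56 and 11.8 FPKM in control-CAR libraries (log2 ratio 5.79, SE 0.11), with 4271 ± 202 FPKM in BMDM. Tgtp1, an interferon-induced GTPase gene, had 58.1, 57.6 and 60.1 FPKM in CAR and 0 in all control-CAR libraries and was at least 694-fold higher. Baiap2l1, which links membranes to actin, had 55.1, 55.5 and 58.2 FPKM in CAR and 0 in all control-CAR libraries and was at least 784-fold higher. Pcolce, an enhancer of procollagen processing, stood at 57.9, 57.8 and 62.9 FPKM in CAR and 0.05, 0.05 and 0.09 FPKM in control-CAR libraries (log2 ratio 9.52, SE 0.21), and Rpl39l, a ribosomal protein copy known from the testis, at 67.6, 66.2 and 66 FPKM in CAR and 0, 0 and 0.21 FPKM in control-CAR libraries (log2 ratio 10.04, SE 0.37). Prl2c2 (log2 ratio 8.37, SE 0.27), Itm2a (log2 ratio 6.04, SE 0.11) and the RNA-binding protein gene Rbms1 (log2 ratio 7.72, SE 0.11) rose too. Rbms1 was at 56.8 ± 0.404 FPKM in CAR libraries and 87.7 ± 4.79 FPKM in BMDM. Tgtp1, Rpl39l and Prl2c2 have near-identical copies, so their counts are uncertain.

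The 8 ranked falls outside the classes included Fam162a, a mitochondrial protein gene known as responsive to hypoxia, at 320, 332 and 351 FPKM in CAR and 3495, 3713 and 3706 FPKM in control-CAR libraries (log2 ratio -3.73, SE 0.0705). Acp5, the tartrate-resistant acid phosphatase of osteoclasts and macrophages, stood at 9.51, 9.52 and 8.17 FPKM in CAR and 130, 152 and 160 FPKM in control-CAR libraries (log2 ratio -4.30, SE 0.11), and Ppp1r3b, which targets a phosphatase to glycogen, at 4.01, 3.96 and 4.1 FPKM in CAR and 81.7, 74.9 and 77 FPKM in control-CAR libraries (log2 ratio -4.57, SE 0.065). The kinase gene Pim2 stood at 14.6, 13.9 and 15.2 FPKM in CAR and 158, 155 and 154 FPKM in control-CAR libraries (log2 ratio -3.72, SE 0.0902). Selenbp2 (log2 ratio -6.98, SE 0.28, with a near-identical copy), Mtus1 (log2 ratio -4.11, SE 0.091), Rtl5 (log2 ratio -4.04, SE 0.10) and Tgm1 (log2 ratio -4.05, SE 0.12) fell as well. Over the 16 genes the adjusted p of edgeR's quasi-likelihood test ran from 2.5e-19 to 7.0e-13. In 6 of the 8 rises the CAR libraries lay above all 12 other libraries, and in 1 of the 8 falls below all 12.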
